A study of Caenorhabditis elegans with 12 samples.

Results

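Eggs of Caenorhabditis elegans labelled daf-2(e1370);bcl-11(bon125) were compared with eggs labelled daf-2(e1370), and the gene families, tissues and developmental stages that differed between them are described. The comparison used 4 daf-2;bcl-11-labelled libraries and 4 daf-2 libraries, which are 8 of the 12 libraries deposited. The other 4 libraries carry daf-16(mu86) in addition to both mutations and entered the model only to share the estimate of spread. The study asked how a hypomorphic bcl-11 allele alters insulin-signalling mutants, here under mild heat during development. All groups carry the daf-2(e1370) mutation, so neither group is wild type. Animals were grown at 20 °C on OP50-1 bacteria, eggs were extracted with bleach and kept at 27 °C for 2 h, and 5 ng of total RNA entered a Smart-seq2 library, a full-length and non-strand-specific preparation. The bon125 allele came from genome editing and was backcrossed. It is a frameshift that leaves the zinc fingers intact and adds residues to the protein, so it is a partial loss of function carried in 1 strain rather than a null. The replicate number of a library is also its batch in the labels.

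The insulin receptor homolog DAF-2 restrains the forkhead factor DAF-16 through a kinase cascade, and in daf-2 mutants DAF-16 is more active. BCL-11 is the worm relative of the mammalian BCL11A and BCL11B zinc finger repressors, which work with chromatin remodelling complexes. The nematode embryo starts with RNA and protein left by the mother, then activates its own genome, specifies its lineages with short waves of transcription factors, and only later builds neurons, muscle, gut, skin and the first cuticle. RNA from a pool of eggs is therefore a mixture of stages, and each stage list used here stands for 1 part of that sequence.

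The targeted genes were examined first. For bcl-11, rlog values (log2-scale normalized counts) were 9.38, 9.02, 9.42 and 9.30 in the daf-2;bcl-11-labelled libraries, against 10.24, 10.47, 9.61 and 10.27 in daf-2 libraries, and the groups did not overlap (log2 fold change −0.87, limma, Benjamini-Hochberg adjusted p = 0.0373). That call was lost in 11 of 17 alternatives. For daf-16, values were 9.51, 9.61, 9.50 and 9.46 in the daf-2;bcl-11-labelled libraries, against 12.14, 12.32, 12.03 and 11.98 in daf-2 libraries (log2 fold change −2.60, limma adjusted p = 1.23e-08). The libraries labelled daf-16;daf-2;bcl-11, whose daf-16 allele is a deletion, had 9.64, 9.77, 9.90 and 9.57. The genotype given to the daf-2;bcl-11 libraries names no change in daf-16, so the level of daf-16 goes against that label, and the group is called by its label throughout. The receptor gene daf-2 had mean values of 9.96 ± 0.09 in the daf-2;bcl-11-labelled libraries and 10.01 ± 0.24 in daf-2 libraries (SD, n = 4 each), a difference of −0.05 that did not pass the test.

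A gene was called changed at an adjusted p under 0.05 (limma, Benjamini-Hochberg over all 25122 genes) with a change above 1.5-fold, which is 0.585 on the log2 scale. Over all genes 22% were called, 7.00% higher and 15% lower in the daf-2;bcl-11-labelled libraries (1758 and 3759 genes), and each count of a gene list below is read against those shares. The decreases were also the larger changes: 217 genes fell by more than 2 on the log2 scale and 45 rose by more than 2. The daf-2;bcl-11-labelled libraries had medians of 5.92 to 6.01 over all genes, against 6.36 to 6.50 in daf-2 libraries. Centring every library on its median adds 0.43 to each change and turned the split into 6714 genes higher and 1860 lower, while quantile normalization gave 2210 higher and 2608 lower. With centring 34.1% of genes were called, 26.7% higher and 7.40% lower, with quantile normalization 19.2%, with 8.80% higher and 10.4% lower, and with libraries paired by replicate 22.8%, with 7.56% higher and 15.2% lower. Without daf-2;bcl-11 replicate 1, 1155 genes were called higher. Of the genes called lower, 1859 stayed lower with centring and 2441 with quantile normalization, and of those called higher, 1758 and 1244 stayed higher. Counts and medians of lists below are of the values as deposited unless centring is named. With centring the median log2 fold change over all genes was 0.41, against −0.02 as deposited. Centred list medians are therefore read against 0.41 and not against 0. Sequencing depth is unknown because the values are not counts, and rlog understates the changes of genes with few reads. Nothing in the labels says that replicates came from separate cultures, so p-values measure the spread between these libraries. Smart-seq2 reads carry no strand, so genes whose exons overlap a gene on the opposite strand are uncertain, and they are listed after the last comparison.

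RNAs that the mother loads into the egg were higher in the daf-2;bcl-11-labelled libraries. Of 30 oocyte and eggshell genes, 21 rose and none fell, with a median log2 fold change of 1.009, against −0.02 over all genes. Of 45 maternal fate regulators, the RNA-binding proteins and signals that pattern the first divisions, 23 rose and none fell (median 0.59). The anterior fate regulator mex-5 had values of 14.17, 13.61, 13.50 and 13.45 in the daf-2;bcl-11-labelled libraries, against 11.25, 11.44, 11.33 and 13.20 in daf-2 libraries (log2 fold change 1.88 ± 0.47 SE, limma adjusted p = 0.00757). The groups did not overlap, but replicate 4 of daf-2 lay close to the other group. The posterior regulator pos-1 behaved alike, with 14.65, 14.06, 13.97 and 13.86 in the daf-2;bcl-11-labelled libraries, against 12.00, 11.61, 11.68 and 13.15 in daf-2 libraries (log2 fold change 2.03 ± 0.43 SE, limma adjusted p = 0.00292). Among other maternal genes, mex-1 rose by 1.84, the Pumilio-family gene puf-11 by 1.75, the germline repressor pie-1 by 1.70, the oocyte maturation factor oma-2 by 1.66 and the translational regulator spn-4 by 1.52 on the log2 scale. Of the eggshell genes, the chondroitin proteoglycan cpg-1 rose by 1.56 and the chitin-binding protein cbd-1 by 1.19. The yolk receptor rme-2 (1.51) and the fertilization gene egg-1 (0.92) were called with overlapping libraries. Not every maternal gene moved: skn-1, which specifies the EMS lineage, differed by 0.25, the chitin synthase chs-1 by 0.26 and perm-2 by −0.34, and none of these passed the test.

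Genes of the first zygotic wave were likewise higher. Of 67 early zygotic genes 29 rose and none fell, with a median of 0.91. The early marker pes-10 had 13.36, 13.02, 12.93 and 12.76 in the daf-2;bcl-11-labelled libraries, against 11.95, 9.52, 10.46 and 11.60 in daf-2 libraries (log2 fold change 2.13 ± 0.63 SE, limma adjusted p = 0.019), so the groups were apart although the daf-2 libraries spread widely. The endoderm factor end-1 had 12.15, 12.16, 11.92 and 11.91 in the daf-2;bcl-11-labelled libraries, against 11.02, 10.49, 10.71 and 11.25 in daf-2 libraries (log2 fold change 1.17 ± 0.25 SE, limma adjusted p = 0.00319). Its paralog end-3 (1.13, limma adjusted p = 0.121), the mesoderm factor tbx-35 (1.35, limma adjusted p = 0.0659) and sdz-31 (0.89, limma adjusted p = 0.136) pointed the same way without passing the test. The GATA factors med-1 and med-2, which act above end-1 and end-3, rose by 0.83 and 1.25, and tbx-37, needed for pharynx from the anterior blastomere, rose by 1.45. Near-identical copies can share reads, so the changes of med-1 and med-2 may not be independent. Across the oocyte, maternal and early zygotic lists together, 72 of 141 genes rose (51.1%) and none fell. With quantile normalization 70 were higher and 1 lower. Centring adds to every change, so it could not test the direction. It gave 118 higher and a median of 1.28, against 26.7% higher and a median of 0.41 over all genes. The number called depended on single libraries: 36 without daf-2;bcl-11 replicate 1, 40 without daf-2 replicate 2 and 47 without daf-2 replicate 3. For the early zygotic list alone it was 12 without daf-2;bcl-11 replicate 1, 13 without daf-2 replicate 2, and 18 without daf-2;bcl-11 replicate 2 or daf-2 replicate 3. The oocyte list had 13 higher without daf-2;bcl-11 replicate 1 or daf-2 replicate 2, and the maternal list had 12 without daf-2;bcl-11 replicate 1, 13 without daf-2 replicate 1 and 15 without daf-2 replicate 2.

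**Figure D1:**
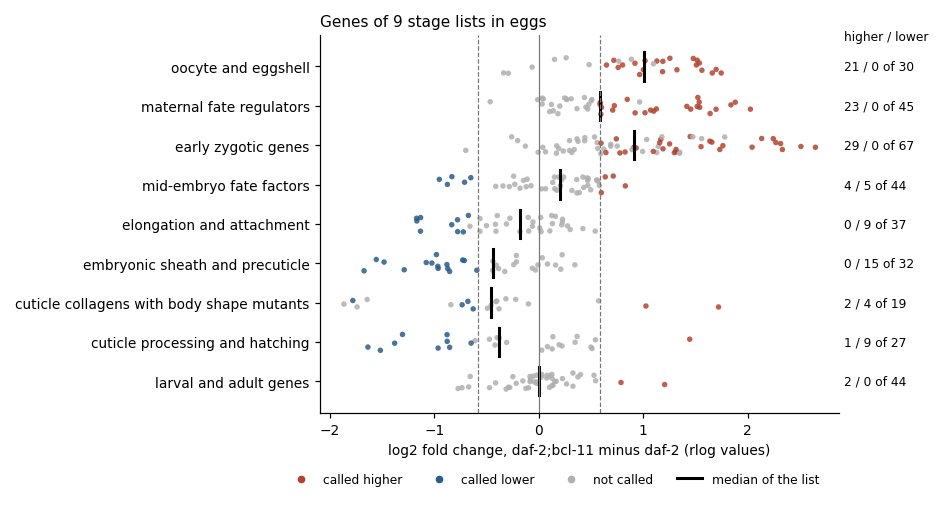
Log2 fold change of every gene in 9 stage lists, daf-2;bcl-11-labelled libraries minus daf-2 (rlog values, 4 libraries each), with 1 point per gene, black bars for list medians, dashed lines at the 1.5-fold threshold, and the counts of genes called higher and lower at the right. The oocyte, maternal and early zygotic lists have medians of 1.009, 0.59 and 0.91, the mid-embryo list 0.20, and the elongation and sheath lists −0.18 and −0.44.

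Between the early and the late lists, the lineage factors of the mid-embryo differed little. Of 44 such genes 4 rose and 5 fell, with a median of 0.20. The intestinal GATA factor elt-2 averaged 11.55 ± 0.11 in the daf-2;bcl-11-labelled libraries and 11.40 ± 0.25 in daf-2 libraries (SD, n = 4 each), a difference of 0.15 that did not pass the test. The pharynx factor pha-4 (0.07), the muscle factors hlh-1 (0.32) and unc-120 (−0.12) and the epidermal factor lin-26 (−0.24) also missed it. The epidermal GATA factor elt-1 was higher by 0.56 (limma adjusted p = 0.00122) but under the 1.5-fold limit. Members that were called included the hindgut Pax gene egl-38 (−0.95), the pharyngeal gland factor hlh-6 (−0.87), the pharyngeal muscle homeobox gene ceh-22 (−0.83) and the posterior Hox gene nob-1 (0.83). With centring, 24 genes of this list were higher and none lower, so its balance depends on the scaling. Without daf-2 replicate 2 the counts were 5 higher and 3 lower, and without daf-2 replicate 3 or replicate 4 there were 7 and 2 higher.

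Genes used when the embryo elongates and lays down its apical matrix were lower or similar. Of 37 genes of elongation and epidermal attachment, none rose and 9 fell, but the median of −0.18 became 0.25 with centring, when 8 were higher and 4 lower. The formin fhod-1 fell by 1.17, the cell fusion protein eff-1 by 1.13, the basement membrane perlecan unc-52 by 1.13 and the apical attachment protein mup-4 by 0.83. The junction and attachment genes let-805 (−0.66), ajm-1 (−0.56), vab-10 (−0.40) and let-413 (0.22) were not called. Of 32 genes of the embryonic sheath and precuticle, the transient apical matrix that shapes the embryo, none rose and 15 fell (median −0.44, −0.01 with centring). The largest decrease of the list was in the fibulin fbl-1, a basement membrane protein and so not a part of the apical matrix. It had 9.198, 9.03, 9.34 and 9.18 in the daf-2;bcl-11-labelled libraries, against 10.52, 11.08, 11.04 and 10.80 in daf-2 libraries (log2 fold change −1.67 ± 0.19 SE, limma adjusted p = 3.78e-05), with a wide gap between the groups. The cuticlin-like genes cutl-17 and cutl-15 fell by 1.56 and 1.48, and the lipocalin lpr-1 fell by 1.29. The best known components of the apical matrix were not called: noah-1 differed by −0.06, noah-2 by −0.01, sym-1 by 0.08, fbn-1 by 0.16 and let-653 by 0.21.

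First-stage cuticle genes followed no single course. Of 19 collagens with body shape mutants 2 rose and 4 fell, and of 27 genes of cuticle processing and hatching 1 rose and 9 fell. Their medians were −0.46 and −0.38, or −0.03 and 0.05 with centring. Pairing libraries by replicate raised the collagens called lower to 8, as did leaving out daf-2;bcl-11 replicate 3, and 2 were lower without daf-2;bcl-11 replicate 1, daf-2 replicate 2 or daf-2 replicate 3. The collagen sqt-3 fell by 0.68, with 17.78, 17.81, 17.98 and 18.05 in the daf-2;bcl-11-labelled libraries, against 18.54, 18.75, 18.49 and 18.56 in daf-2 libraries. The collagens lon-3 and dpy-2 fell by 1.78 and 0.73, while dpy-8 and dpy-9 rose by 1.72 and 1.03. The cuticlins cut-6 and cut-5 fell by 1.64 and 1.52 while cut-1 rose by 1.44. The procollagen protease dpy-31 fell by 0.65 and the molting astacin nas-37 by 1.38, and the hatching enzyme hch-1 (−0.40), the oxidase bli-3 (−0.42), dpy-17 (−0.41), dpy-7 (−0.38) and bli-1 (−0.49) were not called. The late collagen rol-6 stood at 7.38 in replicate 3 of the daf-2;bcl-11-labelled libraries and 7.22 in replicate 3 of daf-2, above 3.99 to 4.81 and 5.00 to 5.28 in the other replicates of each group. In both groups replicate 3 was thus set apart by more than the groups differed in their other replicates. Whether this follows the batch was not tested. Of 44 genes of larvae and adults, 2 rose and none fell. The yolk genes vit-2 and vit-6 (−0.29 and −0.67) and the sperm genes msp-3 and gsp-3 (0.08 and 0.12) did not pass the test, and values of msp-3 were 0.66 to 0.97 in the daf-2;bcl-11-labelled libraries and 0.65 to 0.81 in daf-2 libraries, near the bottom of the table.

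**Figure D2:**
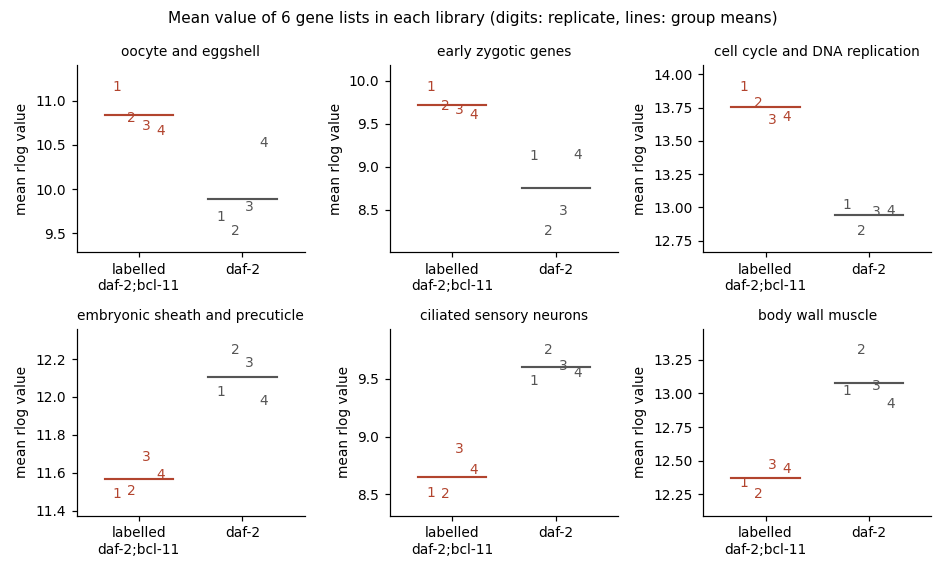
Mean rlog value of 6 gene lists in each library, with digits giving the replicate number and lines the group means, daf-2;bcl-11-labelled libraries at the left and daf-2 at the right of each panel; the vertical axes do not start at 0. The groups do not overlap in any panel, and replicate 4 of daf-2 (10.5) comes nearest to the daf-2;bcl-11-labelled libraries (10.7 to 11.2) in the oocyte list.

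Markers of differentiated tissues were lower in the daf-2;bcl-11-labelled libraries. In 13 lists of somatic tissues and neuron classes, 8 of 470 genes rose and 236 fell (50.2%, against 15% of all genes), and the median was −0.67. The median stayed below 0 with centring (−0.24, 48 higher and 107 lower) and with quantile normalization (−0.55, 8 higher and 205 lower). In pooled eggs, fewer cells of a type and less RNA per cell cannot be told apart. The maternal and early zygotic genes described above were higher in the same libraries. Whether the egg pools differed in stage, and any part of this in the tissue markers, was not tested.

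Ciliated sensory neurons had the largest share. Cilia are the dendrite endings with which worms sense odours, heat and pheromone, and they are built by intraflagellar transport under the RFX factor DAF-19. Of 68 ciliary genes none rose and 52 fell, with a median of −0.97. Leaving out any 1 library gave 49 to 53 lower, and 27 were lower and 2 higher with centring. The transmembrane guanylate cyclase daf-11 had 6.31, 6.60, 6.66 and 6.14 in the daf-2;bcl-11-labelled libraries, against 8.35, 9.14, 9.07 and 8.91 in daf-2 libraries (log2 fold change −2.44 ± 0.21 SE, limma adjusted p = 5.52e-06). The transport component che-13 had 9.31, 9.14, 9.72 and 9.49 in the daf-2;bcl-11-labelled libraries, against 10.71, 10.69, 10.65 and 10.64 in daf-2 libraries (log2 fold change −1.26 ± 0.15 SE, limma adjusted p = 4.72e-05). Both genes separated the groups. The transition zone gene mks-2 fell by 1.995, the transport genes dyf-6, osm-6 and osm-5 by 1.92, 1.37 and 1.012, and the cilium dynein che-3 by 1.57. The channel tax-4 was called (−1.01) with overlapping libraries. The regulator daf-19 itself was lower by 0.50 (limma adjusted p = 0.0206), under the 1.5-fold limit.

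Other neuronal lists moved the same way by smaller shares, except the monoamine list, which was near the share of all genes. Of 47 pan-neuronal genes 2 rose and 18 fell, with a median of −0.38 that became 0.04 with centring. The synaptic priming gene unc-13 fell by 1.14, the SNARE ric-4 by 0.97 and the synapse organizer syd-1 by 1.31, rab-3 was called with overlapping libraries (−0.59), and the SNAREs unc-64 (−0.38) and snb-1 (0.02) were not called. Of 28 genes of acetylcholine neurons 15 fell, of 13 of GABA neurons 7 fell, and of 22 of glutamate neurons 12 fell, with none higher. The nicotinic receptor subunit unc-38 had 8.53, 8.31, 8.70 and 8.78 in the daf-2;bcl-11-labelled libraries, against 10.55, 10.47, 10.53 and 10.76 in daf-2 libraries (log2 fold change −2.0 ± 0.17 SE, limma adjusted p = 3.57e-06). It was the largest decrease of the acetylcholine list, in which the receptor acr-2 fell by 1.32 and the enzyme cha-1 by 0.93, while the transporters unc-17 (−0.43) and cho-1 (−0.23) were not called. The GABA transporter snf-11 fell by 1.20, the GABA-synthesizing enzyme unc-25 fell by 1.013, and unc-47 (−0.58) and unc-30 (−0.09) were not called. The glutamate receptors glr-5 and glr-1 fell by 1.99 and 1.51, and the transporter eat-4 differed by 0.07. Of 25 genes of monoamine neurons 1 rose and 4 fell (4.0% and 16%), near the 7.00% and 15% of all genes. The number lower was 7 when libraries were paired by replicate and 8 without daf-2 replicate 1. The enzymes cat-2 (−0.42), tph-1 (0.38) and tdc-1 (0.88) were not called, and the gene that rose was the dopamine receptor dop-4, by 1.70. Of 19 glial genes 9 fell, among them fig-1 (−1.41), hlh-17 (−1.05) and ptr-10 (−0.91), whereas kcc-3 (−0.58) missed the test. Of 42 axon guidance genes none rose and 11 fell, with a median of −0.13, or 0.30 with centring.

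In muscle, structural proteins of the sarcomere were lower. Of 63 genes of body wall muscle 1 rose and 39 fell (median −0.77). The body wall myosin myo-3 had 13.86, 13.62, 14.08 and 13.89 in the daf-2;bcl-11-labelled libraries, against 15.03, 15.26, 14.82 and 14.90 in daf-2 libraries (log2 fold change −1.14 ± 0.20 SE, limma adjusted p = 0.000869), with no overlap. Troponin T genes tnt-3 and tnt-2 fell by 1.62 and 1.56, the giant filament protein ttn-1 by 1.61, the dense body protein alp-1 by 1.48, paramyosin unc-15 by 1.12, the myosin unc-54 by 0.96 and troponin C pat-10 by 0.88. The twitchin gene unc-22 (−0.97) lost its call in 12 of 17 alternatives. Of 42 pharynx genes none rose and 20 fell (median −0.79). The pharyngeal myosins myo-5, myo-1 and myo-2 fell by 1.27, 1.25 and 1.02, the pharyngeal troponin C tnc-2 by 1.15 and abu-13 by 1.66. Muscle and pharynx factors were mixed: hlh-1, unc-120 and pha-4 were not called, while ceh-22 and hlh-6 were lower, as given above.

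Gut and skin markers were lower as well. Of 57 intestinal genes 1 rose and 25 fell (median −0.64). The metallothionein mtl-1, a metal-binding protein of the gut that DAF-16 activates, had 6.77, 7.00, 7.20 and 7.11 in the daf-2;bcl-11-labelled libraries, against 11.12, 10.28, 10.36 and 12.22 in daf-2 libraries (log2 fold change −3.98 ± 0.34 SE, limma adjusted p = 4.54e-06). This was the largest decrease of the list by far. The ferritin ftn-1 fell by 1.98, the protease asp-6 by 1.59, the intermediate filaments ifc-2 and ifb-2 by 1.48 and 0.91, the brush border actin act-5 by 0.64 and the protease cpr-6 by 0.60, and the esterase ges-1 (−0.20) was not called. Of 41 epidermal genes 1 rose (dpy-8, 1.72) and 25 fell (median −0.72). At the low end were nlp-27 (−2.96), the hedgehog-related grl-21 (−2.41) and the nuclear receptor nhr-73 (−1.96). Several defining genes of the list were not called: the regulator elt-3 (−0.11) and, as given above, lin-26, dpy-7 and ajm-1. Of 35 genes of the excretory system 1 rose and 12 fell, among them the ion exchanger nhx-9 (−1.54), the canal gene exc-5 (−1.39) and the aquaporin aqp-8 (−0.76), and exc-4 (0.21) and let-4 (−0.24) were not called. Of 20 genes of coelomocytes and other mesoderm 1 rose and 4 fell (20%), near the share of protein-coding genes lower (19%, against 15% of all genes). In this list egl-15 (−1.07) and cup-4 (−0.81) were lower and unc-122 (−0.60) was not called. The medians of these last lists, −0.28 and −0.19, became 0.15 and 0.24 with centring.

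The list of primordial germ cell genes moved opposite to the somatic tissue lists. Of 39 germ cell genes 25 rose and none fell, with a median of 0.99. The P granule gene pgl-1, a core of the RNA granules of germ cells, had 12.68, 12.18, 12.14 and 11.96 in the daf-2;bcl-11-labelled libraries, against 10.47, 10.16, 10.47 and 11.65 in daf-2 libraries (log2 fold change 1.55 ± 0.45 SE, limma adjusted p = 0.0181). Replicate 4 of daf-2 was again the nearest to the other group. The P granule gene mip-2 rose by 1.66, xnd-1 by 1.19 and the nanos gene nos-2 by 1.13, whereas the helicase glh-1 (0.17) and nos-1 (0.59) did not pass the test. Of the 39 genes 9 are also in the oocyte or maternal lists, and 8 of those rose, while 17 of the other 30 rose. Among daf-2;bcl-11-labelled libraries replicate 1 had the highest mean of this list (12.2) and of the oocyte list (11.2). Among daf-2 libraries it was replicate 4 (11.5 and 10.5). In pooled eggs, RNA of germ cells and RNA left by the mother cannot be told apart. The part of the maternal rise in this list was not tested. Without daf-2;bcl-11 replicate 1, 16 genes of the list were higher, and without daf-2 replicate 1 or replicate 2, 15 were.

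**Figure D3:**
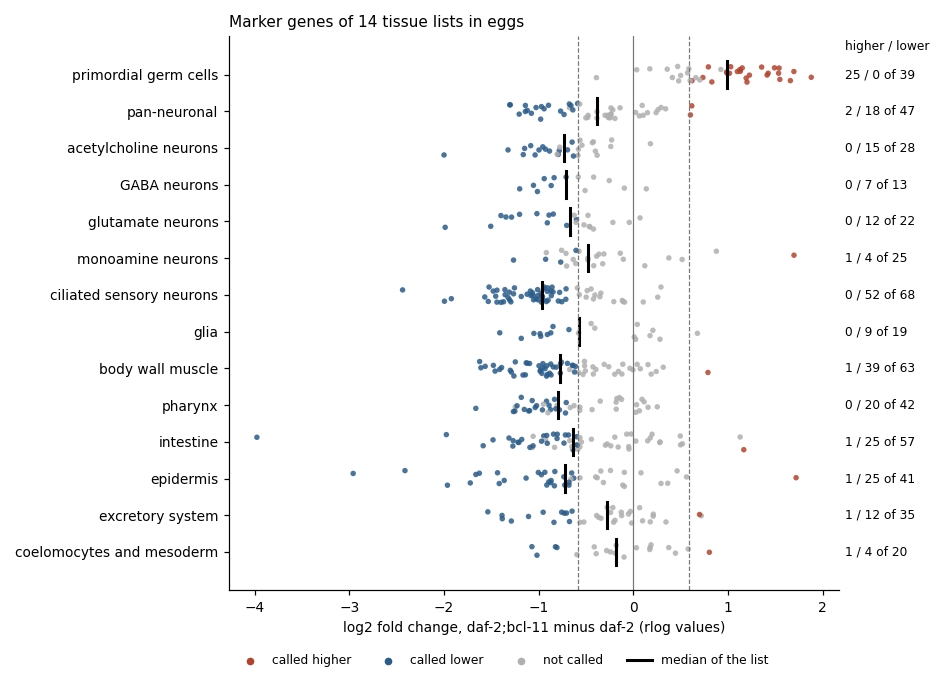
Log2 fold change of every marker gene in 14 tissue lists, daf-2;bcl-11-labelled libraries minus daf-2 (rlog values, 4 libraries each), with 1 point per gene, black bars for list medians, dashed lines at the 1.5-fold threshold and counts of genes called higher and lower at the right. Germ cell genes lie to the right with a median of 0.99, and the 13 somatic lists have medians from −0.97 (ciliated sensory neurons) to −0.19 (coelomocytes and mesoderm).

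Machinery of proliferating cells was higher. Of 53 genes of the cell cycle and DNA replication 41 rose and none fell, with a median of 0.83. The replication clamp pcn-1 had 15.50, 15.08, 14.92 and 15.08 in the daf-2;bcl-11-labelled libraries, against 13.81, 13.78, 13.99 and 13.89 in daf-2 libraries (log2 fold change 1.28 ± 0.13 SE, limma adjusted p = 2.13e-05). The daf-2 libraries were tight (13.9 ± 0.09, SD, n = 4), and the groups did not overlap. The ribonucleotide reductase rnr-2 rose by 1.20, the replication licensing gene mcm-2 by 1.08, the cyclin cyb-1 by 0.89 and the mitotic kinase cdk-1 by 0.82. Of 62 spindle and chromosome segregation genes 37 rose and none fell (median 0.62), with the checkpoint genes mdf-2 (1.26) and zwl-1 (1.11) among them, and 18 of 23 DREAM and synMuv B genes rose, including lin-53 (0.89) and mrg-1 (0.92). Of 21 SWI/SNF and NuRD subunits, the chromatin remodellers with which mammalian BCL11 proteins associate, 5 rose and none fell (median 0.43). No gene of these 4 lists was lower with quantile normalization, which cut the higher calls to 32, 17, 6 and 1. Centring adds to every change, so it could not test the direction of these lists. Their centred medians were 1.26, 1.05, 1.07 and 0.86, against 0.41 over all genes.

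Among families of basic cell machinery, some were higher and others were not. Of 33 proteasome subunits 29 rose and none fell (median 0.79), for example pas-2 (1.39), pbs-2 (1.30) and rpn-12 (1.19). Of 26 nucleoporins 15 rose (npp-18 by 1.05) and of 46 RNA helicase and splicing genes 27 rose (rsp-6 by 1.04), with none lower. Of 41 translation factors 16 rose and none fell, but 8 without daf-2;bcl-11 replicate 1. By contrast, no cytosolic ribosomal protein gene of 81 and no tRNA synthetase of 32 was called, and of 70 mitochondrial ribosomal genes 1 was. Of 20 subunits of the vacuolar ATPase none rose and 2 fell. Of 82 histone genes 39 rose and 3 fell, with the linker histone hil-5 (1.57) and his-60 (1.56) higher and the linker histone hil-1 (−2.63) lower. Core histone messages lack poly(A) tails and near-identical copies share reads, so these values are uncertain. Without a single library the number of histones higher was as low as 22 (daf-2;bcl-11 replicate 1), 23 (daf-2 replicate 2) or 25 (daf-2;bcl-11 replicate 2, or daf-2 replicate 3).

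Among transcription factor families, T-box genes stood out. Several of these factors specify early blastomeres in the worm, and of 19 genes 10 rose and none fell (median 1.05). The largest changes were tbx-32 (2.51), tbx-33 (2.31) and tbx-38 (2.04). The T-box gene tbx-33 had 11.13, 10.46, 10.40 and 10.53 in the daf-2;bcl-11-labelled libraries, against 8.52, 7.29, 8.12 and 9.34 in daf-2 libraries (limma adjusted p = 0.00744). Of 265 nuclear hormone receptors 4 rose and 72 fell, with a median of −0.26 that became 0.17 with centring, when 32 were higher and 24 lower. Of 63 ceh homeobox genes 7 rose and 7 fell, or 27 and 4 with centring, and of 33 sdz genes, named for their dependence on SKN-1 in the early embryo, 7 rose and none fell. The sdz count was 13 when libraries were paired by replicate, 3 without daf-2;bcl-11 replicate 1, daf-2;bcl-11 replicate 2 or daf-2 replicate 2, 4 without daf-2;bcl-11 replicate 3, daf-2;bcl-11 replicate 4 or daf-2 replicate 3, and 12 without daf-2 replicate 1. Of these genes sdz-12 rose most, by 2.24.

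Secreted and matrix families were lower. Of 153 numbered col- collagens, the building blocks of the cuticle, none rose and 68 fell (median −0.81), with col-146 (−4.71) and col-108 (−3.98) lowest. Of 58 transthyretin-like genes, a large secreted family of nematodes, none rose and 38 fell (median −1.09), and 31 fell with centring. The member ttr-59 had 7.87, 7.83, 7.41 and 7.47 in the daf-2;bcl-11-labelled libraries, against 10.37, 10.33, 10.29 and 10.73 in daf-2 libraries (log2 fold change −2.78 ± 0.21 SE, limma adjusted p = 1.67e-06), and ttr-26 and ttr-33 fell by 3.08 and 2.62. Of 59 hedgehog-related genes 1 rose and 31 fell, and of 26 patched-related genes none rose and 16 fell, both with medians of −0.87. Examples are grd-3 (−3.11), grl-23 (−3.05) and ptr-8 (−2.36). All 10 intermediate filament genes were below 0 and 7 of them fell (median −0.98).

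Several families of defence, detoxification and neuropeptide signalling were also lower. Of 46 lysozymes and saposins none rose and 23 fell, led among lysozymes by lys-3 (−3.82) and with spp-11 at −2.71. The C-type lectins, another defence family, were near the share of all genes, with 9 of 218 higher and 33 lower (15.1%) and a median of −0.07 that became 0.36 with centring. Between 3 and 7 lectins were higher when 1 library was left out. Of 72 cytochromes P450 2 rose and 31 fell, and of 66 UDP-glucuronosyltransferases none rose and 23 fell, though the median of the second family, −0.37, became 0.05 with centring. Of 48 glutathione S-transferases 3 rose and 16 fell, or 10 and 6 with centring, with gst-15 (−2.27) and the oxidative stress reporter gst-4 (−1.76) lower, and the P450 cyp-37B1 (−2.33) and the transferase ugt-66 (−2.04) led their own families. Of 31 FMRFamide-like peptide genes all were below 0 and 17 fell, with flp-11 (−1.80), whose peptides act in sleep, and flp-27 (−1.66) lowest. Of 71 nlp genes 2 rose and 28 fell, with nlp-28 (−2.61) and nlp-7 (−1.99) after nlp-27. Few chemoreceptors were called: of 1070 genes 9 rose and 56 fell, with a median of −0.04. With centring 84 were higher and 20 lower, with a median of 0.39. The family averaged 1.97 to 1.98 in the daf-2;bcl-11-labelled libraries and 2.05 to 2.10 in daf-2 libraries. Most members had a mean under 10 normalized counts, so their few calls cannot tell a lack of change from a lack of reads.

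**Figure D4:**
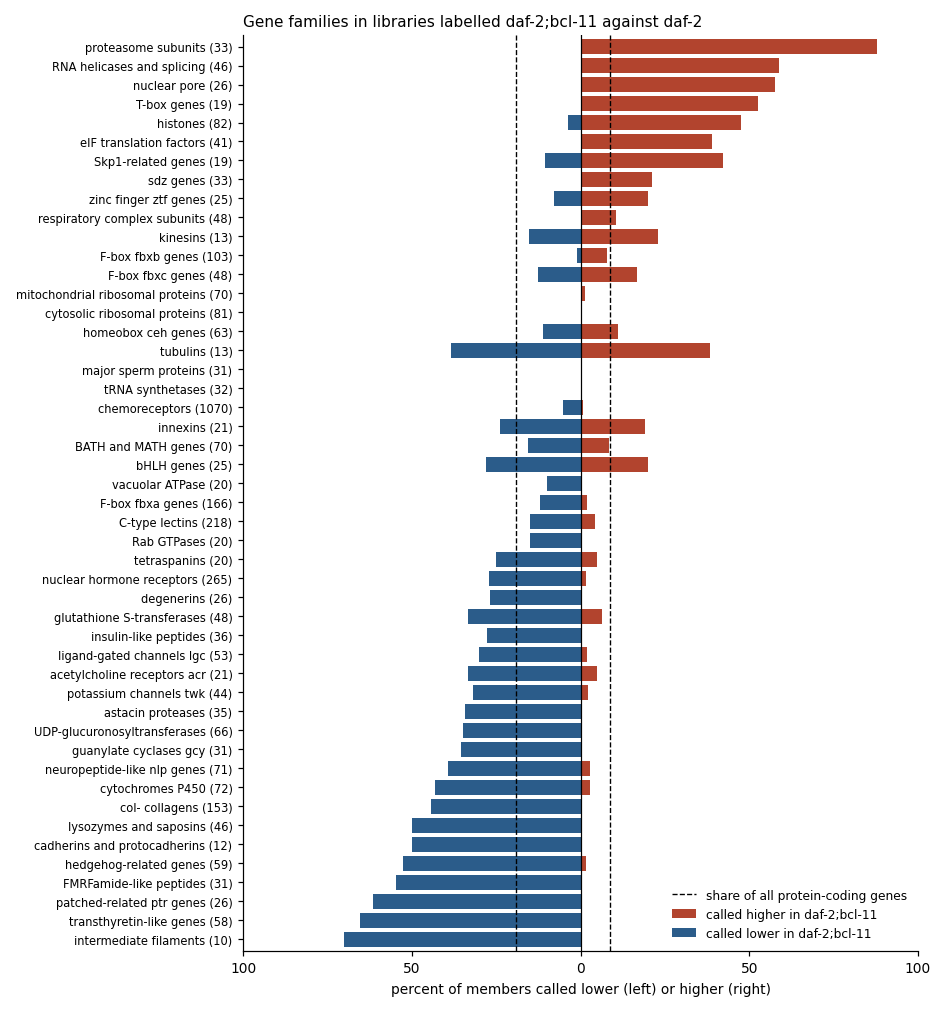
Share of members called lower (bars to the left) and higher (bars to the right) in the daf-2;bcl-11-labelled libraries against daf-2, for 48 gene families of at least 10 members, with member numbers in parentheses; dashed lines mark 8.62% higher and 19% lower over all protein-coding genes. In 13 families the share higher exceeded that of all protein-coding genes and the share lower did not, and in 21 families the reverse held.

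Insulin and heat stress genes were examined because of the daf-2 background and the 27 °C incubation. Of 25 genes that DAF-16 activates 2 rose and 12 fell (median −0.50, −0.07 with centring), and none was higher without any 1 of 6 of the 8 libraries compared. The superoxide dismutase sod-3, a standard DAF-16 target, had 5.30, 5.17, 5.17 and 5.15 in the daf-2;bcl-11-labelled libraries, against 7.74, 8.20, 7.99 and 8.68 in daf-2 libraries (log2 fold change −2.96 ± 0.28 SE, limma adjusted p = 1.23e-05), with no overlap. The small heat shock gene hsp-12.6 fell by 3.55 and dod-3 by 2.03, while the glyoxylate enzyme icl-1 (−0.39) was not called. Of 15 genes that DAF-16 represses none rose and 4 fell, or 2 without daf-2 replicate 4, with a median of −0.32, or 0.11 with centring. These counts stand beside the fall of daf-16 itself in the same libraries, whose part in them was not tested. Of 36 insulin-like peptide genes none rose and 10 fell, or 6 without daf-2 replicate 4, and the median of −0.21 became 0.22 with centring. The peptide gene ins-6, made by sensory neurons, had 5.83, 5.32, 5.51 and 5.49 in the daf-2;bcl-11-labelled libraries, against 9.44, 9.55, 9.13 and 9.27 in daf-2 libraries (log2 fold change −3.81 ± 0.30 SE, limma adjusted p = 2.03e-06). The peptide genes ins-11, ins-20 and ins-1 fell by 3.96, 2.22 and 1.47, and the TGF-beta ligand daf-7, which like ins-6 opposes dauer entry, fell by 3.35. Inside the pathway, the kinase age-1 rose by 0.60, the nuclear receptor daf-12 fell by 1.00 and akt-1 (0.27) was not called.

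Heat shock genes did not move as a group. Of 28 genes 5 rose and 5 fell. The inducible chaperone hsp-70 had 14.29, 14.02, 13.96 and 13.62 in the daf-2;bcl-11-labelled libraries, against 12.04, 10.92, 11.35 and 12.17 in daf-2 libraries (log2 fold change 2.35 ± 0.70 SE, limma adjusted p = 0.0203), a call that was lost in 4 of 17 alternatives. The small heat shock gene hsp-16.41 had 16.02, 15.68, 15.70 and 15.48 in the daf-2;bcl-11-labelled libraries, against 16.29, 13.87, 13.99 and 16.03 in daf-2 libraries, and neither it (0.68) nor hsp-16.2 (0.41) passed the test. Replicates 1 and 4 of daf-2 were as high as the other group in both genes. The developmental small heat shock genes hsp-12.3 and hsp-12.2 fell by 2.04 and 1.61. The number of heat shock genes higher was 2 without daf-2;bcl-11 replicate 1 or replicate 2 and 3 without daf-2 replicate 2. All 8 subunits of the cytosolic chaperonin were above 0 and none was called. The glycolytic enzymes gpd-4 and gpd-1, which belong to a list of 32 trehalose and glycolysis genes with 4 higher and 5 lower, rose by 2.04 and 1.86. That list had 2 higher without daf-2 replicate 1, 6 higher without daf-2 replicate 4, 2 lower without daf-2;bcl-11 replicate 2 or daf-2 replicate 4, and 3 lower without daf-2;bcl-11 replicate 3, daf-2;bcl-11 replicate 4 or daf-2 replicate 3.

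**Figure D5:**
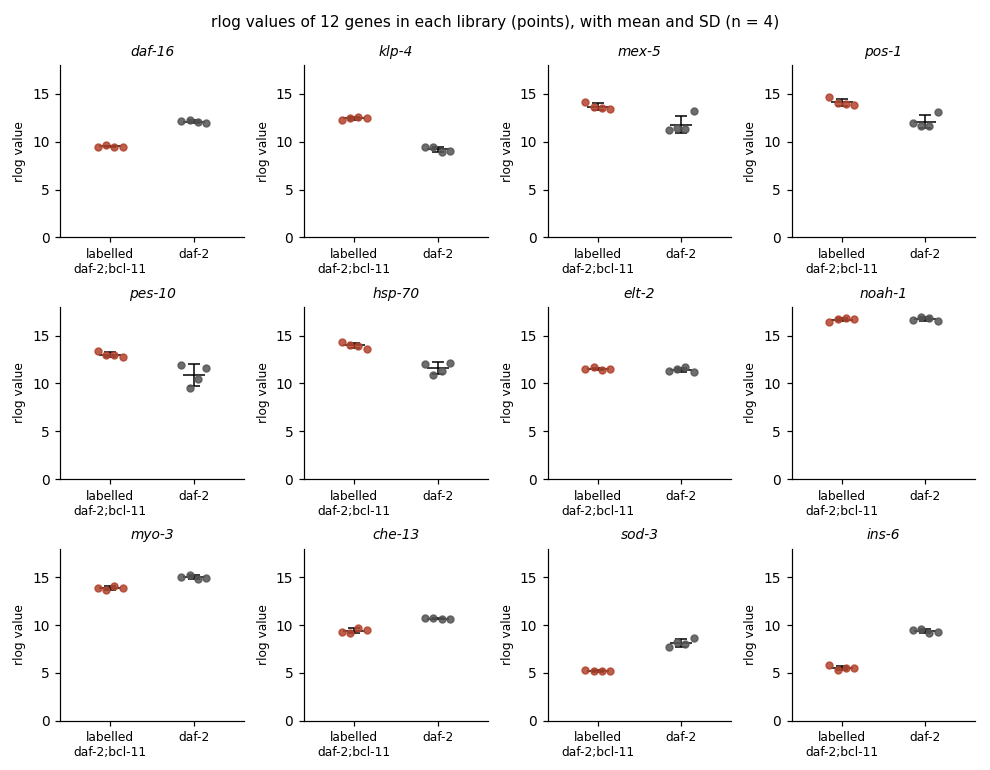
rlog values (log2 scale) of 12 genes in each library, with daf-2;bcl-11-labelled libraries at the left and daf-2 at the right of each panel, points for libraries and black bars for the mean and SD (n = 4). The maternal genes mex-5 and pos-1 are higher in the daf-2;bcl-11-labelled libraries, elt-2 and noah-1 are level (0.15 and −0.06), and daf-16, myo-3, che-13, sod-3 and ins-6 are lower without overlap.

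The largest single changes were decreases. The gene icmt-1, named for its similarity to prenylcysteine methyltransferases, had 4.76, 4.33, 4.56 and 4.68 in the daf-2;bcl-11-labelled libraries, against 12.83, 11.54, 11.79 and 14.21 in daf-2 libraries (log2 fold change −8.0 ± 0.45 SE, limma adjusted p = 5.91e-08). It was followed by F49C12.2 (−7.56), F49C12.4 (−6.75), H39E23.3 (−6.70), D1086.9 (−6.57), C33H5.1 (−6.49), F56D6.9 (−6.25), the SCP-like gene scl-13 (−6.16), the saposin spp-27 (−6.07), the fatty acid and retinol binding gene far-3 (−5.95), ZK1025.3 (−5.49) and the nuclear receptor nhr-264 (−5.44). None of these 12 calls was lost in any of the 17 alternatives. Most of them had values under 5 in the daf-2;bcl-11-labelled libraries, and since rlog shrinks the changes of genes with few reads, these folds are estimates on that scale only. The largest increases were smaller. The kinesin klp-4 had 12.26, 12.44, 12.56 and 12.50 in the daf-2;bcl-11-labelled libraries, against 9.41, 9.48, 8.96 and 9.02 in daf-2 libraries (log2 fold change 3.22 ± 0.19 SE, limma adjusted p = 1.4e-07). After it came the zinc finger gene ztf-28 (2.75), M05D6.3 (2.53), tbx-32, ZC434.8 (2.51), hsp-70, dct-13 (2.33), the forkhead genes fkh-4 (2.33) and fkh-3 (2.27), tbx-33 and F14D7.2 (2.28). One of the 2 genes that share the symbol pes-2.1 was also among them (2.65), but its change rested on daf-2 replicate 1 at 8.06, against 13.23 to 13.31 in the other daf-2 libraries, and its call was lost in 7 alternatives.

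By position, the X chromosome had the largest share of decreases among the nuclear chromosomes. Of protein-coding genes, 27.5% of those on X and 17.6% of those on autosomes fell, and 4.85% and 9.24% rose. Among autosomes, chromosome V had the largest share lower (21.8%) and chromosome III the largest share higher (12.8%). With centring 13.1% of protein-coding genes on X and 11.7% of those on V were lower, and with quantile normalization 19.4% and 14.8%. The surroundings of bcl-11 on chromosome V were much like the rest of it: within 1 Mb of the gene 5.84% of 565 genes rose and 19.1% fell, against 4.15% and 17.1% on the rest of the chromosome. All 12 protein-coding genes of the mitochondrial DNA were below 0, from −1.97 to −0.51, and 9 fell (5 with centring and 10 with quantile normalization). By biotype, 72 of 1558 pseudogenes rose and 66 fell, and of 3589 genes annotated as ncRNA 16 rose and 23 fell.

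Beside these values, the libraries labelled daf-16;daf-2;bcl-11 can be set against the same daf-2 libraries, which both comparisons share. There 6.38% of genes were higher and 16.2% lower. Replicate 4 of that group stood apart from its other replicates in the maternal lists: the oocyte list averaged 11.3 in it and 10.1 to 10.4 in the others. In that comparison 5 of 30 genes of the oocyte list (median 0.69) and 13 of 45 maternal fate regulators (0.58) were higher. Of 67 early zygotic genes 7 were higher and 1 lower (0.39). For the cell cycle 42 of 53 were higher (0.78), and 51 of 68 ciliated neuron genes were lower (−1.04). For the daf-2;bcl-11-labelled libraries the medians of these lists, in the same order, were 1.009, 0.59, 0.91, 0.83 and −0.97. Differences between the 2 comparisons in counts and medians were not tested.

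Exons of mex-1, pie-1, spn-4, egg-1, skn-1, perm-2, end-3, hlh-1, ceh-22, eff-1, unc-52, vab-10, cutl-17, cutl-15, sym-1, fbn-1, dpy-8, nas-37, bli-3, bli-1, vit-2, osm-6, rab-3, unc-64 and unc-38 overlap exons of a gene on the opposite strand, so reads of the 2 partners cannot be told apart. The same holds for eat-4, tph-1, tdc-1, ptr-10, kcc-3, alp-1, unc-22, tnc-2, abu-13, xnd-1, nos-2, nos-1, rnr-2, mcm-2, tbx-38, ptr-8, cyp-37B1, flp-11, sod-3, akt-1, hsp-12.2, far-3, ztf-28, M05D6.3 and ZC434.8.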

How the data were processed

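Eggs of 3 genotypes, 4 libraries each, were profiled by Smart-seq2 (bcl2fastq 2.20). The authors quantified reads with kallisto 048.0 against the Ensembl 109 annotation of WBcel235 and deposited normalized counts after a regularized log transformation, so the deposited numbers have a log2 scale, from −1.52 to 23.1, for 25122 genes. Their summing of transcripts to genes and any low-count filter are not given in the sources used here. Depth per library is unknown, and precision rests on 4 libraries a group. No pseudocount applies. Symbols, positions and biotypes came from Ensembl 115 (23471 genes had a symbol, 5033 overlap an exon on the opposite strand).

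The values were fitted with limma 3.58.1 in R 4.3.3 (1 mean per genotype, 12 libraries, empirical Bayes with a trend), with Benjamini-Hochberg adjustment over all genes. The study's methods name no test for the eggs, and the thresholds (adjusted p under 0.05, 1.5-fold) are those it states. On simulated data for this comparison (25122 genes) the fit called 74 of 107 genes changed by 1 and 88 of 93 changed by 2 on the log2 scale, with 4 false calls. Only those genes were changed, all with a mean of at least 10 normalized counts. Noise was drawn independently and library medians were not shifted, so these rates need not hold for the real libraries. Lists are described by counts and medians without a test of the list. Members and lists were chosen with earlier results of these data known. Genes named are the targeted genes, the 12 largest increases and decreases without overlap between groups, up to 4 of the largest called members without overlap of each list described, and each list's defining genes, of which 2 are not reported here. F49C12.1, F49C12.3, F49C12.5 and scl-12 were chosen after their values were seen.

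The replicate number is a batch in the labels and so pairs the libraries. Deviations of same-numbered libraries from their group means correlated at −0.10 to 0.18. Alternatives were the fit without a trend, the 8 libraries alone, a replicate block, a minimum mean of 10 normalized counts, no fold threshold and a log2 threshold of 1, centring, quantile normalization and leaving out each replicate; leaving out daf-16;daf-2;bcl-11 replicate 4 was chosen after seeing the data. Figures were drawn with matplotlib 3.10.9.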

Additional observations from a re-analysis of the deposited data

Results flagged for a closer look

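In 34 of the 492 groups of 4 libraries checked (246 genes named in the text), 1 library lay far from the other 3, with a gap to its nearest neighbour, relative to the group's range, above Dixon's critical value for 4 samples. Chance gives about 1 in 20, or 24.6 groups. Values are rlog.

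Replicate 4 of daf-2 was the distant library for 11 genes. It was higher than the other daf-2 libraries for mex-5 (13.2, others averaging 11.3), mex-1 (10.8 and 9.21), pie-1 (10.5 and 8.98), mip-2 (10.5 and 9.29), cbd-1 (12.6 and 11.4), hil-5 (13.1 and 11.7), F49C12.3 (8.45 and 8.28) and msp-3 (0.805 and 0.662). It was lower for hlh-1 (11.4 and 11.9), lin-26 (13.66 and 14.01) and lon-3 (10.1 and 10.7). Replicate 1 of daf-2 was low for pes-2.1 (8.06, others averaging 13.3), ins-1 (5.97 and 7.16) and cyp-37B1 (8.44 and 9.64). Replicate 2 of daf-2 was low for hlh-6 (9.78 and 9.95) and high for ttn-1 (16.5 and 15.9). Replicate 3 of daf-2 was high for rol-6 (7.22 and 5.11) and low for eat-4 (5.28 and 5.82) and F49C12.5 (8.02 and 8.26).

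Among the daf-2;bcl-11-labelled libraries, replicate 1 was high for fkh-3 (12.4, others averaging 11.8), fkh-4 (12.2 and 11.5), pas-2 (13.4 and 12.8), mip-2 (11.7 and 11.1), tdc-1 (11.7 and 11.2), lag-1 (13.96 and 13.7) and F56D6.9 (4.40 and 3.52). It was low for hch-1 (15.1 and 15.4), unc-120 (12.3 and 12.4) and ugt-66 (5.24 and 6.18). Replicate 2 was low for unc-54 (12.9 and 13.2) and dos-2 (7.04 and 7.77). Replicate 3 was high for nhr-73 (5.02 and 3.71) and low for cut-1 (6.72 and 7.18) and ttr-33 (6.50 and 7.12).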

How the results depend on the processing

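Of the 5517 genes called (1758 higher, 3759 lower), centring on the library medians gave 8574 (6714 higher, 1860 lower) and a log2 threshold of 1 gave 2511 (514 higher, 1997 lower). Without a fold threshold 7375 genes were called, 3054 of them higher. The cause of the shift in library medians was not tested. Leaving out 1 library gave 4493 to 5825 calls, 1155 to 1977 higher and 3220 to 3848 lower, the lowest number higher being without daf-2;bcl-11 replicate 1. The replicate block, which pairs libraries by batch, gave 5717 calls (1900 higher, 3817 lower) and moved 5 of 188 list counts by over 1.5 times: collagens with body shape mutants lower (8, against 4 without the block), monoamine neuron genes lower (7 and 4) and higher (2 and 1), sdz genes higher (13 and 7), and RNA helicase and splicing genes lower (1 and none). Quantile normalization gave 4818 calls, the fit without a trend 5225, the 8 libraries alone 5816 and the mean filter 5616. The fit without daf-16;daf-2;bcl-11 replicate 4, chosen after seeing the data, gave 5825 (1977 higher, 3848 lower). No gene of those named that was called changed sign in these settings, but centring turned the balance of the calls as a whole and the sign of many list medians. It moved the median over all genes as well, from −0.02 to 0.41. Of the 246 genes, 24 lost their call with centring, 12 with quantile normalization, 27 without daf-2;bcl-11 replicate 1 and 26 without daf-2 replicate 2. Depth is unknown, so the changes of genes with low values are limited by the transformation.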

Other observations

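Among pathways that the comparisons above leave out, of 33 Notch pathway genes 10 rose and 5 fell, with a median of 0.44 (0.87 with centring). The bHLH genes hlh-27, hlh-29 and hlh-25 rose by 1.73, 1.64 and 1.31, as did ref-1 (0.78) and the receptor glp-1 (1.07), while the ligand gene dos-2 fell by 1.71 and lin-12 (0.51) and lag-1 (0.38) were under the 1.5-fold limit. The number higher was 4 without daf-2;bcl-11 replicate 1 and 6 without daf-2;bcl-11 replicate 2 or daf-2 replicate 2, and near-identical copies among these bHLH genes can share reads. Of 50 genes of small RNA pathways 14 rose and 1 fell (median 0.51, or 0.94 with centring), or 9 rose without daf-2;bcl-11 replicate 1 or daf-2 replicate 2. The germline Argonautes wago-1 and ppw-1 rose by 1.41 and 1.15, the Argonaute ergo-1 rose by 0.65, and csr-1 (0.70) and prg-1 (0.66) did not pass the test, while alg-1 (−0.54) passed it under the 1.5-fold limit. Of 30 cell death genes 5 rose, of 29 autophagy genes 4 rose, and of 24 genes of dosage compensation and sex determination 4 rose, with none lower; the last number was 1 without daf-2;bcl-11 replicate 1. Of 24 genes of endoplasmic reticulum stress 2 rose and 1 fell, and of 13 of mitochondrial stress 2 rose, or none without daf-2;bcl-11 replicate 1 or daf-2 replicate 3.

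Large decreases lay close together on chromosomes, a pattern noticed after the values were seen. Of 215 protein-coding genes that fell by more than 2 on the log2 scale, 72 (33.5%) had another such gene within 10 kb, against 5.25% of all 19179 protein-coding genes. For genes that rose by more than 2 it was 9 of 44 (20.5%), against 1.15%. On chromosome IV of WBcel235, positions 9284893 to 9307165, all 7 protein-coding genes fell by 4.13 to 7.56: nhr-267, nhr-264, F49C12.1, F49C12.2, F49C12.3, F49C12.4 and F49C12.5. The gene F49C12.1 had 3.31, 3.09, 3.17 and 3.27 in the daf-2;bcl-11-labelled libraries, against 7.79, 7.40, 7.28 and 7.77 in daf-2 libraries. Other such neighbours were scl-13 and scl-12 on chromosome V (−6.16 and −4.82), hsp-12.3 and hsp-12.6 on chromosome IV, nlp-27 and nlp-28 on chromosome V, and ins-6 and ins-20 on chromosome II. Near-identical neighbours can share reads.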
